A study of Mus musculus with 6 samples.

Results

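The genes described here are 10 components of the protein-folding system of the endoplasmic reticulum (ER), out of 24147 gene rows in the deposited tables. They are the chaperones Hspa5, Hsp90b1 and Calr, the chaperone partners Dnajb9 and Sdf2l1, the disulfide isomerases Pdia4 and Creld2, the secreted ER protein Manf, the transcription factor Xbp1 and the degradation factor Herpud1. They were chosen by gene symbol for their known roles, with earlier results of these data known, and each stood on 1 row of every table.

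RNA was sequenced from wild-type C57BL/6 mice 2 months old, from the lens capsule and the epithelial cells still attached to it once fiber cells were removed through the cornea. The operation models cataract surgery. One group was collected 24 h after surgery (3 libraries) and the other directly after it, at 0 h (3 libraries), so both groups had been operated on and no unoperated lens is included. The labels call the libraries biological triplicates but do not say how many mice or eyes each holds. The p-values weigh the difference between the times against the spread between libraries, part of which may be technical.

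Proteins that enter the ER are folded with the help of Hspa5 (BiP), Hsp90b1 (GRP94) and the lectin-like chaperone Calr, and are given disulfide bonds by isomerases. When unfolded proteins build up, the sensors Ern1 (IRE1), Eif2ak3 (PERK) and Atf6 switch on the unfolded protein response. IRE1 removes a short intron from Xbp1 mRNA so that an active XBP1 factor is made, ATF6 is cut to release a factor that acts on chaperone genes, and PERK raises translation of ATF4. Lens epithelial cells secrete the lens capsule, a thick basement membrane, and so pass much protein through the ER.

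Both ATF6 and XBP1 are known to act on chaperone genes through the ER stress response element, CCAAT and CCACG separated by 9 bases. A second form has ATTGG and CCACG separated by 1 base, and TGACGTGG is a further element bound by these factors. The 250 bases before each RefSeq start (GRCm38.p6) were searched on both strands. A window was found for 9 of the 10 genes, Manf being the other. The first element stood in the windows of 4 of these 9 genes, against 0.113% of 32851 windows of the same length in the mouse table. The second stood in 1 of the 9, against 0.0304% of windows, and TGACGTGG in 0 of the 9, against 0.563%. The matches are shown because these genes are the classical carriers of the element. Capitals mark the matched bases, the rest being in lower case, and each sequence is read 5′ to 3′ in the direction of its gene. The Hspa5 sequence is the whole window, chr2:34771840-34772089 on the plus strand, with the match 65 to 47 bases before the start. The Hsp90b1 stretch is chr10:86705523-86705666 on the minus strand and holds 2 matches, one on each strand. The Calr stretch is chr8:84847065-84847103 on the minus strand, and the Creld2 stretch is chr15:88819510-88819548 on the plus strand. Both are matched on the opposite strand, so that CGTGG comes before ATTGG. The Herpud1 stretch is chr8:94386367-94386397 on the plus strand and holds the second form.
Hspa5: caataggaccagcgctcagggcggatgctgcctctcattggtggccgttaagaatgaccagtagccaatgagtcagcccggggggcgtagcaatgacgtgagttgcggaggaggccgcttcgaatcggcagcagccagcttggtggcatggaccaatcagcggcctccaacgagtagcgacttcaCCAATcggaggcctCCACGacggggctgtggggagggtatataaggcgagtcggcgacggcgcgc
Hsp90b1: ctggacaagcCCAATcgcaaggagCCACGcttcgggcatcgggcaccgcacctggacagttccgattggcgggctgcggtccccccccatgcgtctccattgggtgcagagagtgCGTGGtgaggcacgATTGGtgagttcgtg
Calr: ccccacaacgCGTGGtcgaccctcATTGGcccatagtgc
Creld2: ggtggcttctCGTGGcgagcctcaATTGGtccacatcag
Herpud1: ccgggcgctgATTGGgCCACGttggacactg

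The question put to these genes was whether the ER folding system of the cells left on the capsule differed between 24 h and 0 h. At 24 h, 9 of the 10 genes had risen, by 1.54-fold to 3.59-fold, and Herpud1 was the exception. All 10 passed the filter on low counts. Genes called higher, with an adjusted p under 0.05 in edgeR's quasi-likelihood test, made up 15.2% of the 13956 genes tested, and genes called lower 13.0%. None of the 10 was called lower. Their median log2 fold change was 1.16, against -0.03 over all genes tested. The libraries of the 2 times did not overlap for any of the 10, with 9 wholly higher and Herpud1 wholly lower at 24 h, and such separation was seen in 22.9% of all genes upward and 21.8% downward. Levels below are counts relative to library size scaled by TMM, as CPM, given for replicates 1, 2 and 3 in that order, and every error of a log2 fold change is a standard error (SE). Errors of mean levels are SDs of 3 libraries.

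**Figure D1:**
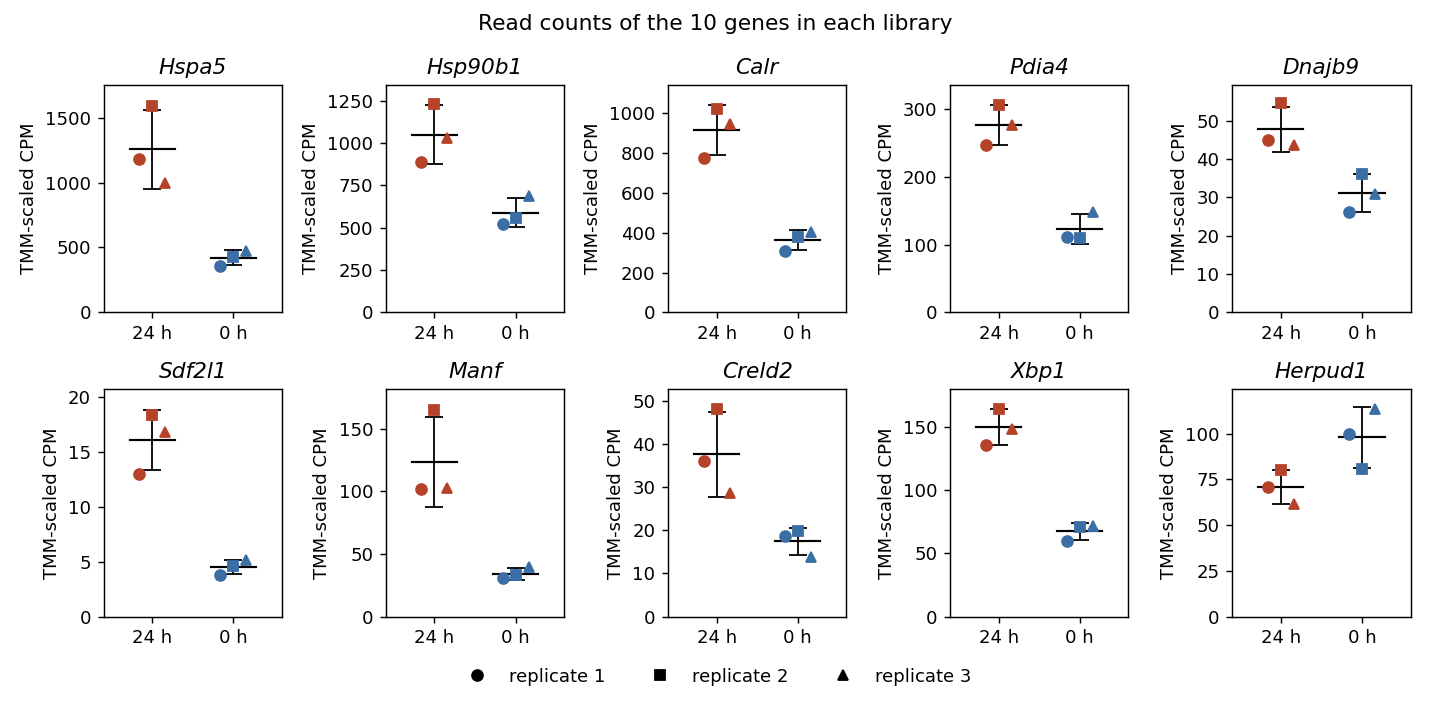
TMM-scaled CPM (linear axes from 0) of each of the 10 genes in the 3 libraries at 24 h (red) and the 3 at 0 h (blue), with the mean and SD of each group as bars. All red points lie above all blue points except for Herpud1, where they lie below, and the square, 24 h replicate 2, is the highest red point in every panel.

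Hspa5 is the main Hsp70 chaperone of the ER and also holds the stress sensors inactive (chromosome 2, 34772090 to 34776529, mm10). It had 1184, 1592 and 994 CPM at 24 h, against 359, 426 and 475 CPM at 0 h. Every 24 h library stood far above the highest 0 h library. The rise was 2.99-fold, a log2 fold change of 1.58 ± 0.22 (edgeR adjusted p = 0.00131).

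Hsp90b1 is the Hsp90 chaperone of the ER and folds integrins and Toll-like receptors among other clients (chromosome 10, 86690841 to 86705444). It had 889, 1230.3 and 1030.5 CPM at 24 h, against 522, 557 and 686 CPM at 0 h. It rose less than Hspa5 did in fold, by 1.78-fold (log2 fold change 0.84 ± 0.19, edgeR adjusted p = 0.0131).

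Calr, calreticulin, binds calcium and the sugar chains of new glycoproteins (chromosome 8, 84842088 to 84846931). Its levels were 777, 1023 and 947 CPM at 24 h, against 308, 377 and 406 CPM at 0 h. Every 24 h library stood well above the 0 h range, and the rise was 2.52-fold (log2 fold change 1.33 ± 0.19, edgeR adjusted p = 0.00127).

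The balance between Hspa5 and Hsp90b1 was also compared within each library, a measure that no scaling of libraries can move. By deposited RPKM, a read count per gene length and library size, the level of Hspa5 divided by that of Hsp90b1 was 1.404, 1.364 and 1.018 at 24 h, against 0.725, 0.807 and 0.731 at 0 h. By RPKM, Hsp90b1 was thus the more abundant in every 0 h library and Hspa5 in every 24 h library. In 24 h replicate 3 the margin was small and depended on gene length. Hspa5 had fewer reads than Hsp90b1 there (9405 against 9746). A two-sided exact permutation test gave p = 0.1 for this ratio and for that of Hspa5 over Herpud1 below, the smallest p that 3 against 3 libraries allow (0.1 after Benjamini-Hochberg adjustment over the 2). Both ratios were chosen after the values were seen.

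The partners of these chaperones differed in how far they rose. Sdf2l1, which forms a complex with ER DnaJ proteins and keeps unfolded clients from aggregating (chromosome 16, 17130138 to 17132383), had 13.0, 18.4 and 16.8 CPM at 24 h, against 3.81, 4.61 and 5.12 CPM at 0 h. This was the least abundant of the 10 genes at both times, yet its 3.56-fold rise was among the largest of the 10 (log2 fold change 1.83 ± 0.25, edgeR adjusted p = 0.00122). It rests on 102 to 173 reads per library at 24 h and 38 to 46 at 0 h. Dnajb9 (ERdj4), which brings Hspa5 to IRE1 and is a known XBP1 target (chromosome 12, 44205897 to 44210068), had 45.0, 54.6 and 43.8 CPM at 24 h, against 26.3, 36.1 and 31.0 CPM at 0 h. Its rise of 1.54-fold was the smallest of the 9 (log2 fold change 0.62 ± 0.17, edgeR adjusted p = 0.0246). Leaving out 0 h replicate 1 ended this call (adjusted p = 0.0643), as did leaving out 0 h replicate 3 (0.0700 for the same measure) or 24 h replicate 2 (0.0765). Over 14 alternatives the range was 0.0109 to 0.621.

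Of the isomerases, Pdia4 (ERp72; chromosome 6, 47796141 to 47813512) had 247, 306 and 277 CPM at 24 h, against 111, 110.1 and 148 CPM at 0 h. It rose 2.25-fold, with a log2 fold change of 1.17 ± 0.17 (edgeR adjusted p = 0.00155). Creld2, a stress-induced protein with isomerase activity (chromosome 15, 88819646 to 88826681), had 36.1, 48.1 and 28.8 CPM at 24 h, against 18.7, 19.8 and 13.9 CPM at 0 h. The 24 h libraries of Creld2 were spread widely, with 24 h replicate 3 closest to the 0 h range, and the rise was 2.15-fold (log2 fold change 1.10 ± 0.23, edgeR adjusted p = 0.00824).

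Manf, a small ER protein that binds Hspa5 and is secreted under stress with protective effects described in retina (chromosome 9, 106887415 to 106891938), had the largest fold change of the 10. It had 102, 164 and 103 CPM at 24 h, against 30.4, 32.8 and 39.7 CPM at 0 h. Replicate 2 stood apart from the other two 24 h libraries, which were alike. The rise was 3.59-fold, a log2 fold change of 1.84 ± 0.22 (edgeR adjusted p = 0.000589). Its log2 fold change without 24 h replicate 2 was 1.58, the lowest over 14 alternatives, in all of which it was called.

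Xbp1 itself (chromosome 11, 5520641 to 5525993) had 136, 165 and 149 CPM at 24 h, against 59.8, 71.1 and 72.0 CPM at 0 h. The libraries of each time lay close together, and the 2.22-fold rise had the smallest SE of the 10 (log2 fold change 1.15 ± 0.14, edgeR adjusted p = 0.000725). Counts per gene join the spliced and unspliced forms of Xbp1 mRNA, so the share that was spliced was not measured.

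Herpud1, a membrane protein of the ER that takes part in the degradation of misfolded proteins (chromosome 8, 94386500 to 94395358), did not follow the other 9. It had 71.0, 80.3 and 61.6 CPM at 24 h, against 99.7, 80.7 and 114 CPM at 0 h. The highest 24 h library and the lowest 0 h library nearly touched. The log2 fold change was -0.47 ± 0.17, with a 95% interval of -0.85 to -0.09, and was not called (edgeR adjusted p = 0.069). Without 0 h replicate 2 it was called lower (log2 fold change -0.59, adjusted p = 0.0425), and all 14 alternatives gave a negative sign, with an adjusted p of at least 0.0425. Within a library, the RPKM of Hspa5 divided by that of Herpud1 was 11.9, 14.2 and 11.5 at 24 h, against 2.57, 3.78 and 2.99 at 0 h. Both genes are known targets of the unfolded protein response, and every 24 h library had a higher ratio than every 0 h library.

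**Figure D2:**
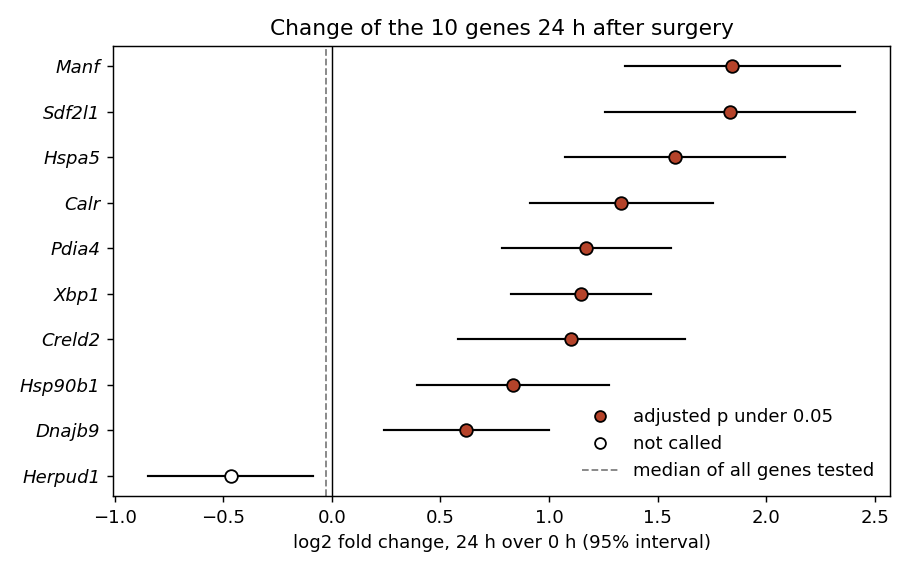
Log2 fold change of each gene at 24 h over 0 h with its 95% interval from edgeR, filled where the adjusted p was under 0.05, ordered by size. Manf and Sdf2l1 lie highest, and Herpud1 alone lies below 0, left of the median of all genes tested (dashed).

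Levels between genes can be compared by RPKM, which divides by gene length. At 24 h the order was Hspa5 (497 ± 147 RPKM, SD, n = 3), Calr (487 ± 94.4), Hsp90b1 (394 ± 88.2), Pdia4 (115 ± 19.2), Xbp1 (68.9 ± 10.7), Manf (57.9 ± 20.4), Herpud1 (39.1 ± 6.91), Creld2 (28.6 ± 8.87), Dnajb9 (26.5 ± 4.798) and Sdf2l1 (15.0 ± 3.38 RPKM). At 0 h Hsp90b1 came first (207 ± 30.4 RPKM), then Calr (182 ± 32.2), Hspa5 (157 ± 26.4), Herpud1 (50.6 ± 5.80), Pdia4 (48.0 ± 7.52), Xbp1 (29.4 ± 4.61), Dnajb9 (16.4 ± 3.86), Manf (15.1 ± 2.19), Creld2 (12.5 ± 2.94) and Sdf2l1 (3.97 ± 0.706 RPKM). Among the 3 leading chaperones, neighbours in order overlapped in range at both times. The first and last of them at 0 h, Hsp90b1 and Hspa5, did not overlap. At 24 h gaps without overlap lay below Hsp90b1, below Pdia4 and above Sdf2l1. Herpud1 stood at the fourth place at 0 h, in overlap with Pdia4, and at the seventh at 24 h. Manf passed Dnajb9, with which it overlapped at 0 h.

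Together the 10 genes held 0.339%, 0.512% and 0.373% of all counts at 24 h, against 0.141%, 0.182% and 0.187% at 0 h. The mean share was 0.408% ± 0.0913 at 24 h and 0.170% ± 0.0250 at 0 h (SD, n = 3 each), and every 24 h library was above the 0 h range. All 10 genes, Herpud1 included, were highest among the 24 h libraries in replicate 2. That library was the highest of its time for 35.3% of all genes tested and for 45.6% of those called higher. At 0 h, replicate 3 was highest for 8 of the 10, beside 4873 of the 13956 genes tested and 763 of the 2125 called higher. Gnat1, a transducin subunit of rod photoreceptors in the retina, was also highest at 24 h in replicate 2, with 661, 1193 and 252 CPM at 24 h, against 898, 1379 and 402 CPM at 0 h, and it was not called between the times. At 0 h Gnat1 was highest in replicate 2. The part of retinal RNA in the level of the 10 genes was not tested. Without 24 h replicate 2 the 10 genes had a median log2 fold change of 1.08, and 8 were called higher, Dnajb9 being the one lost. The coefficient of variation of CPM ran from 9.52% to 29.2% within 24 h and from 10.04% to 18.03% within 0 h.

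**Figure D3:**
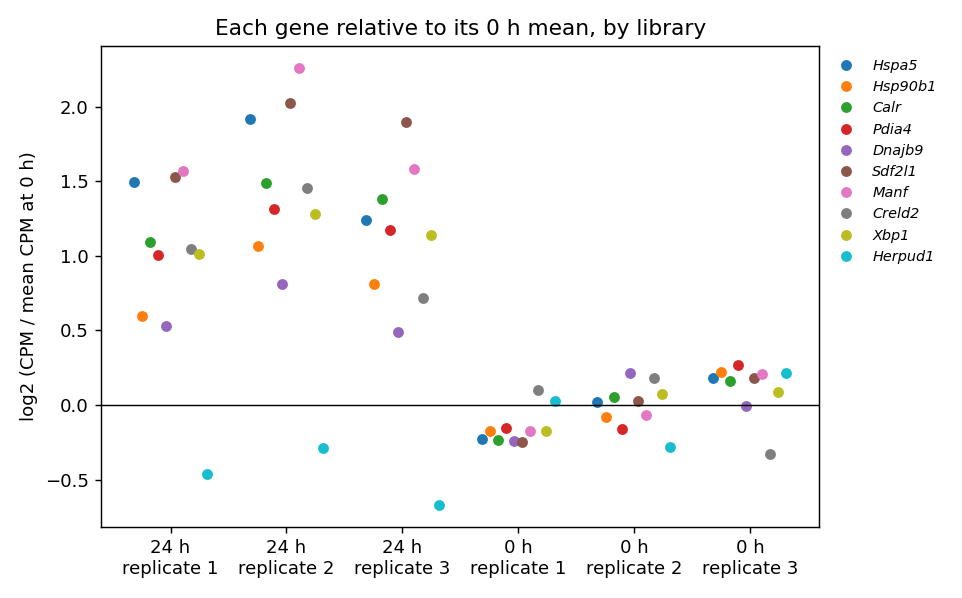
Log2 of each gene's CPM over its own 0 h mean, in each of the 6 libraries, with 1 colour per gene. In the 24 h libraries 9 genes lie above 0, furthest in replicate 2, and Herpud1 lies below 0. In the 0 h libraries all genes lie near 0.

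The profile of Hspa5 over the 6 libraries was compared with those of genes outside every list that had a mean of at least 10 CPM, by the root mean square difference of centred log2(CPM + 1). The closest were Aen (0.0946), an exonuclease gene of the p53 response, and Mapk6 (0.0950), which encodes the kinase ERK3, followed by Spidr (0.114), Nabp1 (0.115) and Hsd3b7 (0.117). Aen averaged 43.3 ± 12.3 CPM at 24 h and 13.4 ± 0.856 CPM at 0 h. Mapk6 averaged 127 ± 22.9 CPM at 24 h and 44.3 ± 7.43 CPM at 0 h (SD, n = 3 each). Among the 10 genes Manf was closest to Hspa5 (0.148), then Sdf2l1 (0.195) and Calr (0.218), and Dnajb9 (0.499) and Herpud1 (1.02) were farthest.

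Around these genes, 10 lists of ER genes, also chosen with earlier results of these data known, held 162 genes, of which 159 were tested. Of those, 60 were higher (37.7%) and 10 lower (6.29%), beside 15.2% and 13.0% of all genes tested, and their median log2 fold change was 0.36. The call of every list is drawn in the bar plot of ER gene lists, and the values below come from the same edgeR test.

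Cofactors of Hspa5 were mostly not called: 2 of 9 rose and 0 fell, with a list median of 0.12 on the log2 scale, and 1 was higher against a 1.5-fold change. The 2 were Hyou1, a large Hsp70 that exchanges the nucleotide of Hspa5 (267 ± 29.7 CPM at 24 h and 126 ± 13.7 CPM at 0 h, edgeR adjusted p = 0.00141), and Dnajb11, a DnaJ partner (1.97-fold, adjusted p = 0.00376). Sdf2, the close relative of Sdf2l1 that is not induced by stress, averaged 38.5 ± 5.73 CPM at 24 h, against 42.0 ± 6.46 CPM at 0 h (adjusted p = 0.643). The stress-induced Sdf2l1 and its relative thus stood apart in the same libraries, though the difference between them was not tested.

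Disulfide isomerases and oxidases rose in 5 of 16 members and fell in 1. P4hb, the most studied isomerase and a subunit of collagen prolyl hydroxylase, averaged 466 ± 42.8 CPM at 24 h, against 229.9 ± 10.96 CPM at 0 h (2.03-fold, edgeR adjusted p = 0.00145). Pdia6 rose 2.06-fold (adjusted p = 0.00479), and Pdia3, Txndc5 and Qsox1 were the other members that rose. Tmx4, a thioredoxin-like membrane protein of the ER, fell to 134 ± 13.8 CPM at 24 h, against 252 ± 25.0 CPM at 0 h (adjusted p = 0.00268). The higher count was 3 without 0 h replicate 2, and against a 1.5-fold change 2 were higher and 0 lower.

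The calnexin cycle checks the sugar chains of glycoproteins and works beside Calr. In the list of this cycle, of glycan trimming and of a cargo receptor, 2 of 9 tested members rose, of 10 listed. These were Mcfd2, a cargo receptor subunit (1.91-fold, edgeR adjusted p = 0.0029), and Mogs, the first glucosidase (1.56-fold, adjusted p = 0.0184). Uggt2 averaged 41.4 ± 10.4 CPM at 24 h, against 46.8 ± 9.91 CPM at 0 h (adjusted p = 0.5998). Leaving out 0 h replicate 2, 0 h replicate 3 or 24 h replicate 2 gave a count of 1, where the call of Mogs was lost, and 0 against a 1.5-fold change.

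ER-associated degradation, the pathway in which Herpud1 acts, rose in 3 of 21 members and fell in 1, near or below the shares over all genes. Edem1, a lectin that picks misfolded glycoproteins and a known XBP1 target, averaged 62.4 ± 14.6 CPM at 24 h, against 32.6 ± 1.49 CPM at 0 h (1.92-fold, edgeR adjusted p = 0.00552). Ube2j1, a ubiquitin-conjugating enzyme, rose 1.45-fold (adjusted p = 0.0174), a call lost without 0 h replicate 2 (0.0621) or 24 h replicate 3 (0.0534). Syvn1 (HRD1), the central ubiquitin ligase, rose 1.47-fold. Erlec1, an ER lectin, fell 1.52-fold (adjusted p = 0.0299). The higher count was 1 without 0 h replicate 2 and 0 against a 1.5-fold change. The call of Erlec1 was lost on leaving out any library other than 0 h replicate 2 and 24 h replicate 3, and so was it with library totals only (0.0543) and against a 1.5-fold change (0.670).

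Genes of translocation into the ER, signal peptide cleavage and N-glycosylation rose in 14 of 23 members and fell in 0, with a list median of 0.58 on the log2 scale. Spcs3, a subunit of the signal peptidase, averaged 242 ± 27.5 CPM at 24 h, against 57.1 ± 8.04 CPM at 0 h, a 4.24-fold rise (edgeR adjusted p = 0.000102). Rpn1, a subunit of the oligosaccharyltransferase, rose 1.71-fold (adjusted p = 0.00502). Sec62, which acts both in translocation and in the turnover of the ER, averaged 166 ± 20.7 CPM at 24 h, against 216 ± 26.7 CPM at 0 h (adjusted p = 0.106). Most of these rises were small. This count of 14 became 9 without 0 h replicate 1, 4 without 0 h replicate 2, 7 without either 24 h replicate 2 or 24 h replicate 3, and 1 against a 1.5-fold change.

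Genes of ER-Golgi transport rose in 10 of 18 members and fell in 0. The COPII coat subunit Sec23b averaged 107 ± 4.88 CPM at 24 h, against 57.7 ± 3.67 CPM at 0 h (1.86-fold, edgeR adjusted p = 0.00116), and Sec24d rose 2.172-fold (adjusted p = 0.00305). Sec23a, the paralog of Sec23b, averaged 101 ± 8.90 CPM at 24 h, against 117 ± 20.5 CPM at 0 h (adjusted p = 0.368). The receptors Kdelr2 and Kdelr3, which return escaped chaperones to the ER, also rose, by 1.71-fold and 2.84-fold. Fits that left out 0 h replicate 1 or 0 h replicate 2 gave a count of 5, those without 24 h replicate 2 gave 4, and against a 1.5-fold change 2 were higher.

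ER proteins that modify or fold collagen rose in 3 of 15 members and fell in 1, with a list median of -0.16 on the log2 scale. Plod3, a lysyl hydroxylase, averaged 140.2 ± 19.7 CPM at 24 h, against 56.0 ± 5.16 CPM at 0 h (2.50-fold, edgeR adjusted p = 0.000527), and Crtap rose 1.54-fold (adjusted p = 0.0101). P4ha2, a catalytic subunit of prolyl hydroxylase whose partner P4hb rose, fell to 49.2 ± 18.7 CPM at 24 h, against 139 ± 24.0 CPM at 0 h (adjusted p = 0.00382). The lower count was 2 without 24 h replicate 2, and against a 1.5-fold change the higher count was 1.

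Genes of ER calcium handling went both ways, 4 higher and 4 lower of 15. Atp2a2, the pump that fills the ER with calcium, averaged 469.9 ± 41.9 CPM at 24 h, against 246 ± 17.7 CPM at 0 h (1.91-fold, edgeR adjusted p = 0.00238). Among the release channels, Itpr3 rose 1.69-fold (adjusted p = 0.00565), and Itpr1 fell to 81.6 ± 15.0 CPM at 24 h, against 177 ± 6.15 CPM at 0 h (adjusted p = 0.00158). Stim1, the ER calcium sensor, was another of those that fell. Against a 1.5-fold change 1 was higher and 1 lower.

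**Figure D4:**
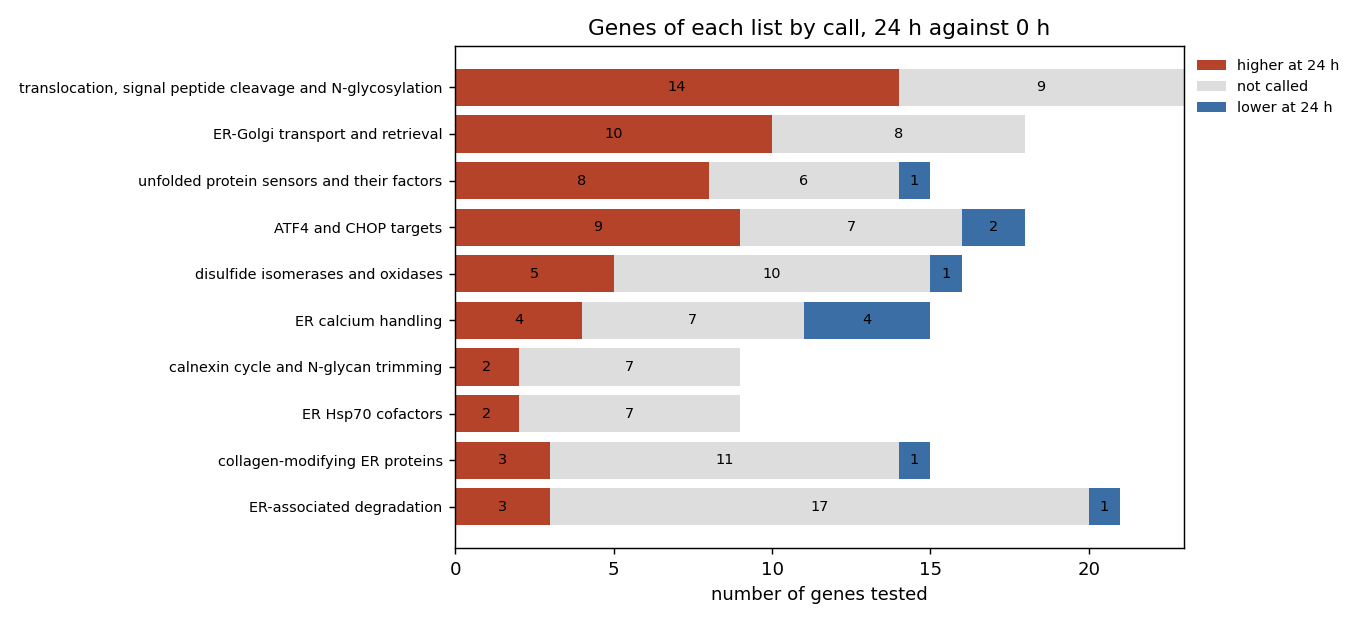
Number of tested genes in each of 10 ER gene lists that were called higher at 24 h (red), not called (grey) or called lower at 24 h (blue), ordered by the share called higher. Translocation and transport lie at the top with 14 of 23 and 10 of 18 higher, and ER-associated degradation at the bottom with 3 of 21 higher.

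The mRNAs of the 3 sensors were not called. Ern1 averaged 29.9 ± 4.48 CPM at 24 h, against 23.4 ± 4.97 CPM at 0 h (edgeR adjusted p = 0.238). Eif2ak3 averaged 40.0 ± 7.37 CPM at 24 h, against 38.7 ± 4.91 CPM at 0 h (adjusted p = 0.870). Atf6 averaged 103 ± 8.53 CPM at 24 h, against 85.1 ± 6.59 CPM at 0 h (adjusted p = 0.148). The sensors act through their proteins, which were not measured here. Of the whole list of sensors and their factors, 8 of 15 tested rose and 1 fell, of 17 listed. The list also held Creld1 and Cdnf, which are neither sensors nor their factors, and Creld1 was among the 8. Creb3l1 (OASIS), a membrane-bound relative of ATF6, averaged 118 ± 18.4 CPM at 24 h, against 28.8 ± 3.76 CPM at 0 h, a 4.11-fold rise (adjusted p = 0.000118). Atf4, the factor of the PERK arm, rose 2.53-fold (adjusted p = 0.00131). Mbtps1, the protease that cuts ATF6, fell to 164 ± 30.9 CPM at 24 h, against 253 ± 23.2 CPM at 0 h (adjusted p = 0.0264), a call lost on leaving out any library other than 0 h replicate 2 and 24 h replicate 3. The higher count was 4 without 0 h replicate 2, 5 without 0 h replicate 3, and 2 against a 1.5-fold change.

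Ddit3 (CHOP), a factor induced by ATF4 and tied to cell death, had 12.1, 28.04 and 12.5 CPM at 24 h, against 8.92, 9.02 and 6.83 CPM at 0 h. Only replicate 2 was far above the 0 h range. Its call was at the threshold (log2 fold change 1.09 ± 0.35, edgeR adjusted p = 0.0493). Leaving out any 0 h library or 24 h replicate 2 ended it, the adjusted p in these 4 fits being 0.0982 to 0.152, and without 24 h replicate 2 the log2 fold change was 0.57. Limma-voom did not call it either (adjusted p = 0.085). Nor was it called in edgeR with library totals only (adjusted p = 0.0522) or against a 1.5-fold change (adjusted p = 0.206). Known targets of ATF4 and CHOP rose in 9 of 18 members and fell in 2, with Asns, asparagine synthetase, up 7.69-fold (adjusted p = 9.7e-05) and Mthfd2, a mitochondrial folate enzyme, up 4.12-fold (adjusted p = 0.000277). Phgdh, the first enzyme of serine synthesis, fell to 217 ± 54.4 CPM at 24 h, against 482 ± 112 CPM at 0 h (adjusted p = 0.00924), and with Psat1 made up those that fell. The lower count was 1 without 0 h replicate 1 and 0 against a 1.5-fold change.

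The ER stress elements described above were also looked up outside the 10 genes. Among all promoters 45 genes held the first or second form, and 22 of these were tested. Of the 17 that were not among the 10, 4 were higher (23.5%) and 1 lower, with a median log2 fold change of -0.01. Over all genes tested, 15.2% were higher and 13.0% lower. Those that rose were Pdia6 and Syvn1, which are in the ER lists above, and Zfp57 and Rcl1, which are in none of them. Canx, the membrane-bound relative of Calr, averaged 829 ± 122 CPM at 24 h, against 687 ± 118 CPM at 0 h (edgeR adjusted p = 0.337), and Dnajc3, a DnaJ partner of Hspa5, averaged 147 ± 14.2 CPM at 24 h, against 156 ± 16.2 CPM at 0 h (adjusted p = 0.695). These genes were named after their values were seen. Not every gene that held the element was called higher, and Herpud1 was among those that held it and were not called. The part of the element in any change was not tested.

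The libraries had 8069314 to 9249248 counts at 24 h and 8734906 to 10862573 at 0 h, with 16248 to 16962 genes detected. Among markers of the labelled tissue, all 10 lens epithelial genes were tested, led by Cryab and Pax6, and 7 were lower and 1 higher at 24 h. Their summed level was 11716 to 15388 CPM at 24 h and 19650 to 33727 CPM at 0 h. Cryab made up most of that sum (11496 ± 1945 CPM at 24 h and 25173 ± 7056 CPM at 0 h). Pax6 averaged 324 ± 67.5 CPM at 24 h, against 455 ± 53.7 CPM at 0 h, and was not called (edgeR adjusted p = 0.0946). Lens fiber genes were lower in 9 of 9 tested of 10 listed, with sums of 15239 to 17770 CPM at 24 h and 33005 to 54508 CPM at 0 h. Both sums were thus lower at 24 h, and the part of fiber cell RNA in the epithelial sum was not tested. In such tissue a change in the mix of cells and a change of RNA per cell cannot be told apart, for the 10 genes as for the lists.

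Other cell types were measured with the ER genes. Neutrophil markers summed to 93.4 to 179 CPM at 24 h and 6.21 to 16.6 CPM at 0 h, with 5 of 5 tested higher of 10 listed. Csf3r and Itgam led them, and Elane was at 0 counts in every library. Plasma and B cell markers, of interest because plasma cells are rich in Xbp1 and chaperones, had 3 of 10 genes tested and 0 called, and summed to 71.5 to 118 CPM at 24 h and 67.4 to 92.9 CPM at 0 h. Sdc1, which epithelia also express, made up most of that (88.8 ± 21.4 CPM at 24 h and 72.7 ± 14.4 CPM at 0 h). The defining Mzb1 had 0 to 3 reads per library, and Cd79b, Ms4a1 and Pou2af1 were at 0 counts throughout 0 h.

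Monocyte and macrophage markers, led by Lyz2 and Csf1r, had 2 higher and 3 lower of 10 and summed to 75.7 to 175 CPM at 24 h and 70.4 to 160.0 CPM at 0 h. Fibroblast and keratocyte markers, led in level by Fbln1 and Aldh3a1 (both lower), had 2 higher and 3 lower of 8 tested. They summed to 946 to 1818 CPM at 24 h and 2821 to 3099 CPM at 0 h, with Kera at 0 in all libraries. Ciliary and pigment epithelium markers, led by Dct and Tyrp1, had 2 higher and 4 lower of 10 and ranged from 161 to 1219.9 CPM at 24 h and 279.6 to 464 CPM at 0 h. Endothelial markers summed to 35.9 to 62.3 CPM at 24 h and 32.8 to 54.7 CPM at 0 h. Kdr and Egfl7 led them in level and were not called, and the 2 higher of 8 tested were Pecam1 and Cdh5. Corneal and conjunctival markers summed to 21.7 to 146 CPM at 24 h and 26.5 to 61.4 CPM at 0 h. Dsg1a and Muc4 led them in level and were not called, and the 2 higher of 7 tested were Krt12 and Krt5. The part of any of these cells in the rise of the 9 genes was not tested.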

How the data were processed

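RNA from the 6 tissue samples was purified by RNeasy columns for TruSeq sequencing. The labels' protocols name 1 TruSeq kit described as stranded and 1 that is not so described. The submitters' processing notes name Trim Galore 0.4.4, TopHat2 2.1.0, HTSeq 0.6.1p1, SAMtools 1.4, bedtools 2.17, edgeR 3.16.5 and mm10. For the annotation and strand setting the sources used here give nothing. Each deposited file holds whole-number gene counts and, beside them, the authors' RPKM, per the file headers. RPKM was used only to compare levels between genes and for the 2 within-library ratios, which were compared between the times.

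Genes were filtered with filterByExpr (13956 kept, with 99.8% or more of the counts of each library), scaled by TMM and tested with edgeR 4.0.16 (R 4.3.3, two-sided quasi-likelihood test, no covariate, Benjamini-Hochberg over all genes tested). A gene was called at an adjusted p under 0.05 in this test. SEs and 95% intervals derive from its F statistic and are approximate. The fit was checked on simulated counts. Alternatives used DESeq2 1.42.0, limma-voom 3.58.1, other scalings and filters, a replicate block and fits without each library. No 2 libraries of a group agreed within sampling noise.

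The 10 genes and all lists were chosen with earlier results of these data known. Named by rule were the 10 genes, in each ER list the 2 risers and 1 faller with the lowest p, Ern1, Eif2ak3, Atf6 and Ddit3, the 2 most abundant of each marker list (1 marker list is not reported as a whole), and the 5 profiles closest to Hspa5. Other named genes were chosen after their values were seen. By deposited coordinates Hsp90b1 and Pdia4 overlap only a microRNA gene each, and the other 8 overlap no listed gene. GENCODE M21, with longer gene models, places genes of the opposite strand over 3966 bases of Hsp90b1 (the pseudogene 1810014B01Rik), 392 of Manf and 473 of Herpud1, whose reads may not have been told apart. Promoters come from RefSeq (GRCm38.p6). Protein ends, planned, were not analysed.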

Additional observations from a re-analysis of the deposited data

How the results depend on the processing

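All 9 genes that rose kept their direction in each of 14 alternatives, and the number called was 9 with DESeq2, limma-voom, both other scalings, both other filters and the replicate block. Against a 1.5-fold change 6 were called, without Hsp90b1 (adjusted p = 0.198), Dnajb9 (adjusted p = 0.621) and Creld2 (adjusted p = 0.0595). Leaving out 1 library gave 8 to 9 called higher and 0 to 1 called lower, the 1 being Herpud1 without 0 h replicate 2. Over all genes, 2125 were higher and 1817 lower, against a 1.5-fold change 1060 and 629, and without single libraries 1550 to 1884 higher and 1038 to 1665 lower, the lowest without 0 h replicate 3; fewer libraries or a stricter null enter these fits by construction. With library totals only the split was 2323 higher and 1441 lower. Whether replicate numbers pair the libraries could not be decided from 3 libraries per time. Deviations of same-numbered libraries correlated at 0.0929, 0.232 and 0.423, and those of differently numbered libraries at -0.374 to 0.182. At 24 h, replicates 2 and 3 correlated best with their own number, but replicate 1 did so with 0 h replicate 2 (0.182). The replicate block gave 2315 higher and 2174 lower, and 3 lower rather than 1 in both the degradation and the collagen list. Signs turned only for genes that were not called: over fits without 1 library, Sdf2 ran from -0.24 to 0.025 (log2; positive without 24 h replicate 1), Uggt2 from -0.38 to 0.037 (positive without 0 h replicate 3) and Eif2ak3 from -0.11 (no 24 h replicate 2) to 0.15, with -0.02 when 0 h replicate 1 was left out. Among the 10 genes depth limits Sdf2l1 most (38 reads in 1 library at 0 h), and Asns had 32 reads in 0 h replicate 3.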
